A study of Mus musculus with 24 samples.

Results

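The 10 genes described here are Fmod, Thbs4, Comp, Tnmd, Scx, Mkx, Kera, Dcn, Lum and Bgn, out of 55416 genes counted by RNA sequencing in mouse gastrocnemius muscle. They were listed by name as tendon and matrix proteoglycan genes, a sign of the connective tissue in each sample, and were selected on differences between small mouse cage and sham mice that were already known from these libraries. Values of those comparisons are therefore given as a description. Counts of these genes past a threshold there stand beside the same share of all genes, and nothing is read from them. All 10 genes were found in the count table by Ensembl identifier, and all 10 were among the 16408 genes that passed edgeR's filter on low counts.

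The study asked how physical inactivity impairs the switch of muscle between carbohydrates and lipids as fuel, and RNA sequencing was among its assays. Male and female mice spent 8 weeks in a small mouse cage (SMC), which leaves little room for movement, or served as sham. Each of 4 groups, sham and SMC in each sex, held 6 mice, and each library came from a different mouse. Sham mice stayed ambulatory, and all mice were wild-type animals of a strain that the labels spell C56BL6J and the study names C57BL/6J. By the study's methods the mice were bought at 8 weeks of age and were fasted before tissue collection. Mice are numbered from 1 to 24 as in the sample titles: male sham 1 to 6, female sham 7 to 12, male SMC 13 to 18 and female SMC 19 to 24. Library totals ran from 23026627 to 36880413 counts with a median of 27461328. Skeletal muscle markers (Acta1, Ckm, Mb, Des and Ttn) were present in every library, with a summed level from 108400 to 288600 counts scaled to library size as CPM. In male sham 4 and female sham 7 the 7 slow fibre genes summed to 62.59 and 54.49 CPM, whereas the group medians lay between 1454 and 2787 CPM. Fits without both mice are given below for the 10 genes, and for gene lists whose calls or direction changed.

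Tendon and the sheets around muscle are built from type I collagen fibrils, and small leucine-rich proteoglycans bind those fibrils and limit or guide their growth. Fmod (fibromodulin), Lum (lumican), Kera (keratocan), Dcn (decorin) and Bgn (biglycan) encode such proteoglycans. Thbs4 (thrombospondin 4) and Comp (cartilage oligomeric matrix protein, also called thrombospondin 5) encode secreted glycoproteins of the same family that bind collagen. Scx (scleraxis) and Mkx (mohawk) encode transcription factors of the tendon lineage, and Tnmd (tenomodulin) encodes a membrane protein used as a marker of mature tendon cells. Dcn, Lum and Bgn are also made by fibroblasts throughout muscle, which is why they are kept apart from the other 7 genes in what follows. A gastrocnemius sample carries the aponeuroses and the start of the Achilles tendon to an extent that depends on the dissection. In bulk RNA, fewer cells of a type and less RNA per cell cannot be told apart.

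The stretch of 250 bases before the RefSeq transcription start is shown for 3 of these genes, Fmod and Thbs4 because their levels moved together from mouse to mouse, and Tnmd as the marker of mature tendon cells. Scleraxis binds E-boxes, so the E-box motif CANNTG was searched, which reads the same on both strands, and matches are in capitals. Each sequence is written 5′ to 3′ on the strand of the gene, from the mouse build GRCm38.p6, which is not the build GRCm39 that the authors' counts were made on.
Fmod, chr1:134037004-134037253, plus strand: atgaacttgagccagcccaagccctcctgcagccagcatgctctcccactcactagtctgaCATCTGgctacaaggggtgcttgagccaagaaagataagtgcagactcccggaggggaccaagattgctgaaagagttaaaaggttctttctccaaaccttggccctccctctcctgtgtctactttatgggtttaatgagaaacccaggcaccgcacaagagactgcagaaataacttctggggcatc
Thbs4, chr13:92794819-92795068, minus strand: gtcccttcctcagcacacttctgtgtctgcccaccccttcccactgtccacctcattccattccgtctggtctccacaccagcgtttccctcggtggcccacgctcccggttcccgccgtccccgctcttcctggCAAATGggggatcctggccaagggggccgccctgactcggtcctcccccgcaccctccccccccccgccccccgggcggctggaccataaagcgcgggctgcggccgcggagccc
Tnmd, chrX:133850758-133851007, plus strand: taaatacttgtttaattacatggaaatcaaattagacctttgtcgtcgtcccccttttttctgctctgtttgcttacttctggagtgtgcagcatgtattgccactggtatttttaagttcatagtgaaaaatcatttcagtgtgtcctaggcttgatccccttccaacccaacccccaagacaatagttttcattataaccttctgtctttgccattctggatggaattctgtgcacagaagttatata
The Fmod stretch held 1 E-box, CATCTG, whose upstream base lay at position -189 from the start, and the Thbs4 stretch held 1, CAAATG, at -115. The Tnmd stretch held 0. Of the 10 genes 5 had an entry in the promoter table, and in Bgn 1 E-box was found at -102 and in Kera 0. Of all 32851 promoter stretches of that length, 66.2% held at least 1 E-box, so carrying a single match did not set these genes apart. For Tnmd the GENCODE transcript starts 28 bases upstream of the RefSeq start used here, so the last bases of that stretch are transcribed in that annotation. For Kera the RefSeq start lies 326 bases into the GENCODE transcript. The 250 bases searched for Kera therefore lie downstream of the start in that annotation.

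Dcn and Fmod were the most abundant of the 10 genes per kilobase of exon. The median over the 24 mice was 42.67 CPM per kilobase for Dcn and 42.0 for Fmod, followed by 34.79 for Thbs4, 9.68 for Bgn, 6.76 for Lum and 3.63 for Comp. The tendon cell marker and the regulators were low, with medians of 1.81 CPM per kilobase for Tnmd, 1.66 for Scx and 0.594 for Mkx, and Kera was at 1.53. Ordered by median CPM per kilobase, neighbouring genes differed beyond their spread in some places and not in others. Dcn exceeded Fmod in 11 of 24 mice, Tnmd exceeded Scx in 15 of 24, and Scx exceeded Kera in 12 of 24, so these neighbours were not separated. Thbs4 exceeded Bgn in 24 of 24 mice, Bgn exceeded Lum in 23 of 24, and Kera exceeded Mkx in 22 of 24. Fmod exceeded Thbs4 in 21 of 24, with a mean log2 ratio per kilobase of 0.33 and an SD of 0.33. Exon lengths came from GENCODE M21.

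The ratio of Fmod to Dcn, a fibril proteoglycan rich in tendon against one made across connective tissues, varied 4.93-fold between mice. Per kilobase it ran from 0.469 in female SMC 24 to 2.32 in female sham 12, and was above 1 in 13 of 24 mice. The same ratio of Fmod to Lum ran from 1.70 to 20.32, a range of 11.95-fold. The ratio of Fmod to Thbs4 was the steadiest of those computed, from 0.730 in male sham 5 to 1.82 in female SMC 22, with a range of 2.49-fold. Proportions of the 10 genes to each other therefore were not fixed across mice of 1 tissue label.

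Fmod was between 79.34 and 156.9 CPM in male sham mice (median 129.9) and between 77.49 and 169.4 CPM in male SMC mice (median 141.0). In female sham mice it was at 97.77, 190.6, 100.1, 394.7, 222.9 and 441.2 CPM in mice 7 to 12, in that order. In female SMC mice it ran from 64.95 to 221.8 CPM with a median of 127.6. Mice 10 and 12 stood above all 22 other mice, and the 4 groups overlapped.
Thbs4, a matrix protein produced at muscle and tendon borders, was between 72.67 and 161.4 CPM in male sham (median 121.0) and between 58.09 and 109.0 in male SMC (median 84.96). Female sham mice spanned 84.08 to 295.7 CPM (median 154.9) and female SMC mice 54.33 to 148.5 (median 124.6). The highest values were again those of female sham 10 with 295.7 CPM and female sham 12 with 260.6 CPM.
Comp was between 6.07 and 13.24 CPM in male sham (median 11.73), and between 5.88 and 16.19 in male SMC (median 9.66). Female sham mice spanned 6.19 to 39.16 CPM (median 18.3) and female SMC mice 2.47 to 17.44 (median 10.77). Female sham 10 at 36.5 CPM and female sham 12 at 39.16 CPM exceeded every other mouse, the next being female sham 11 at 19.85.

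Tnmd, Scx, Mkx and Kera were measured on far fewer reads, so counting error is a larger share of their spread. The lowest count in a library was 18 among Tnmd, Scx and Mkx and 10 for Kera. Tnmd ran from 0.745 to 4.32 CPM in male sham (median 3.02), from 1.18 to 3.38 in male SMC (median 2.13), 0.877 to 8.97 among female sham mice (median 3.41) and 0.898 to 4.03 with SMC (median 1.70). Its lowest and highest mice, male sham 4 and female sham 10, were both sham and differed 12.04-fold.
Scx ran from 2.86 to 4.21 CPM in male sham (median 3.50), from 2.32 to 4.76 in male SMC (median 2.96), 2.04 to 5.03 among female sham mice (median 3.08) and 2.03 to 5.06 with SMC (median 4.09). It spanned 2.496-fold over all mice, and its 4 groups covered much the same range.
Mkx ran from 1.61 to 2.86 CPM in male sham (median 2.46), from 1.45 to 3.12 in male SMC (median 2.61), 1.41 to 6.03 among female sham mice (median 3.33) and 1.83 to 4.45 with SMC (median 2.23). In GENCODE M21, Mkx shares 201 of its 4095 exon bases with the same-strand gene AC148004.2, so reads there may have been assigned to neither or either gene. Scx lies within Bop1 on the opposite strand and shares 0 exon bases with it.

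Kera, best known as a corneal proteoglycan and also found in tendon, had the widest range of the 10 genes, 41.75-fold between male sham 4 at 0.414 CPM (10 counts) and female sham 10 at 17.28 CPM (474 counts). Its group medians were 4.54 CPM in male sham, 2.66 in male SMC, 6.13 in female sham and 2.61 in female SMC. In each sex the SMC median was the lower, and the ranges of sham and SMC overlapped.
Dcn, among the steadiest of the 10 genes, ran from 234.9 to 363.0 CPM in male sham (median 261.7), 219.4 to 278.9 in male SMC (median 244.5), 167.3 to 413.2 in female sham (median 278.6) and 203.7 to 284.5 in female SMC (median 246.2). Both SMC groups lay within the range of female sham.
Lum ran from 5.63 to 25.4 CPM in male sham (median 18.28), 11.38 to 16.82 in male SMC (median 14.14), 9.37 to 25.99 in female sham (median 15.29) and 13.14 to 28.28 in female SMC (median 22.25). Female SMC 24, the mouse with the lowest Fmod, Thbs4 and Comp, had the highest Lum.
Bgn ran from 44.58 to 78.67 CPM in male sham (median 64.54), 43.14 to 60.05 in male SMC (median 50.86), 36.26 to 86.7 in female sham (median 66.55) and 54.54 to 72.46 in female SMC (median 62.16).

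**Figure D1:**
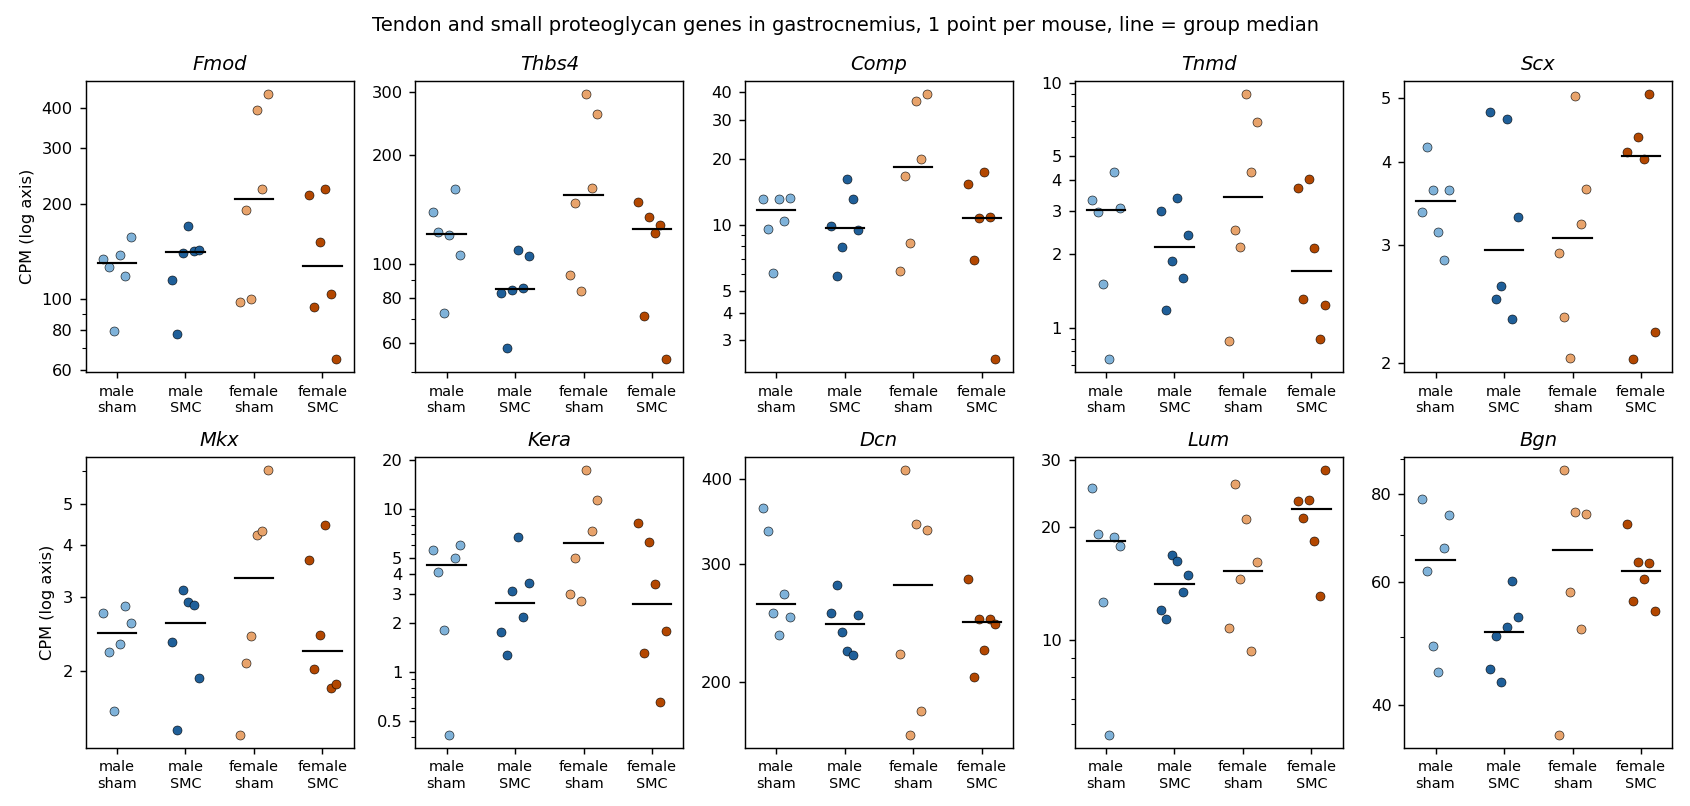
Level of each of the 10 genes in CPM (log axis) in the 4 groups, with 1 point per mouse in order of mouse number and a line at the group median. In the panels of Fmod, Thbs4 and Comp, 2 female sham mice (10 and 12) stand above all others, at 394.7 and 441.2 CPM for Fmod, and the groups overlap in every panel.

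The spread between mice of 1 group was wide for most of these genes. The within-group SD of log2 CPM was 1.18 for Kera, 0.91 for Tnmd, 0.81 for Comp, 0.64 for Fmod, 0.54 for Thbs4, 0.53 for Mkx and 0.52 for Lum, against a median of 0.26 over the 16408 genes. Kera varied more than 99.23% of those genes, Tnmd more than 97.73%, Comp more than 96.56% and Fmod more than 91.22%. Scx had an SD of 0.43 and was closer to the middle, above 73.59% of genes. Dcn and Bgn had SDs of 0.32 and 0.31, above 59.03% and 57.25% of genes. Female sham was the group in which Fmod, Thbs4, Tnmd, Mkx and Comp varied most, with an SD of log2 CPM of 0.93 for Fmod against 0.34 in male sham, 0.39 in male SMC and 0.70 in female SMC.

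Levels of the 7 tendon genes went up and down together from mouse to mouse. After subtraction of group means, Pearson's r over the 24 mice was 0.94 for Fmod with Comp, 0.90 for Thbs4 with Comp, 0.89 for Fmod with Thbs4 and 0.86 for Fmod with Mkx. Tnmd and Kera formed another close pair with an r of 0.89, while Kera reached 0.51 with Comp. These are descriptions over libraries that also share their depth and dissection, and were given no p. Over the 15 pairs without Scx, r lay between 0.51 and 0.94 with a median of 0.72. Scx was more loosely tied to the other 6, with r between 0.35 (Mkx) and 0.67 (Thbs4) and a median of 0.54, and both ranges overlapped. Without female sham 10 and 12, the r of Fmod with Comp was 0.93 and that of Tnmd with Kera 0.88, and the lowest r among the 15 pairs was 0.44.
Dcn, Lum and Bgn correlated with each other with r from 0.58 to 0.67. Across the 2 sets of genes the 21 values of r ran from -0.07 (Scx with Lum) to 0.68 (Kera with Lum), with a median of 0.37. Kera and Tnmd were the tendon genes nearest to Lum, with r of 0.68 and 0.56, while Fmod and Thbs4 both reached 0.18 with it.

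**Figure D2:**
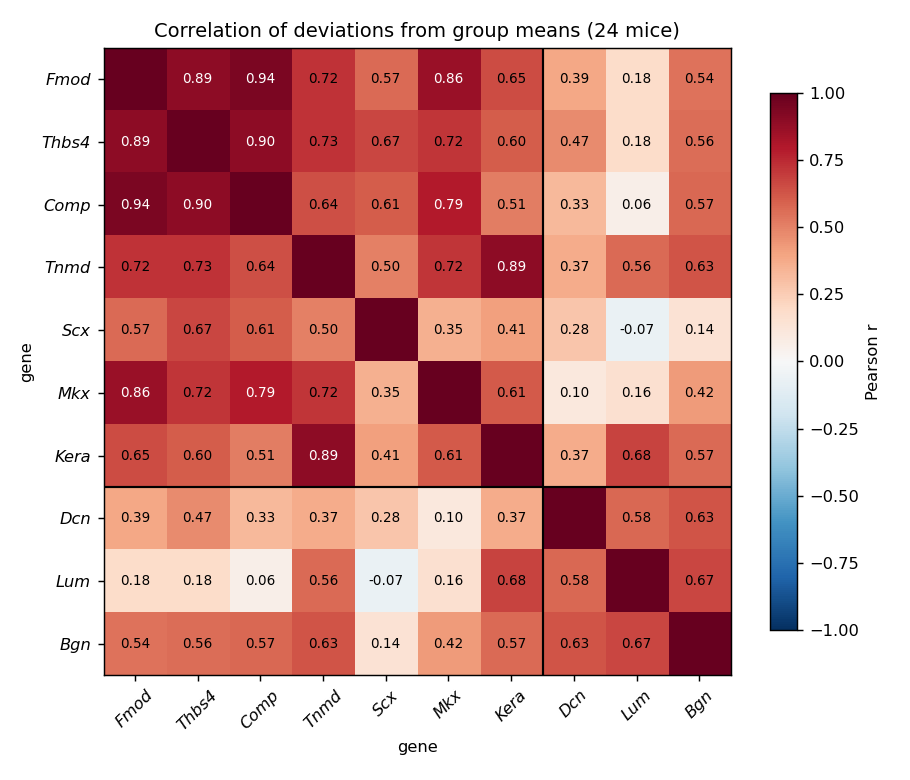
Pearson r between the 10 genes over 24 mice, computed on log2 CPM minus the group mean, with lines that part the 7 tendon genes from Dcn, Lum and Bgn. Values are highest for Fmod, Thbs4 and Comp (0.89 to 0.94) and for Tnmd with Kera (0.89), and lowest for Scx with Lum (-0.07).

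Each mouse was then given 2 values, the mean deviation of the 7 tendon genes from their group mean and that of Dcn, Lum and Bgn, each gene in units of its own SD. The tendon value ran from -1.42 in female sham 7 to 1.41 in female sham 10, with 1.27 in female sham 12. The other ran from -1.67 in male sham 4 to 1.72 in female sham 8. Pearson's r between both values was 0.48 and Spearman's rho 0.58 over the 24 mice. Female sham 8 had the highest value for Dcn, Lum and Bgn and a tendon value of -0.42, and female sham 11 had -1.29 and 0.32. Male sham 4 and female sham 7, the mice with the low slow fibre genes, were the lowest for Dcn, Lum and Bgn at -1.67 and -1.40, and had tendon values of -0.50 and -1.42. Over all mice the summed slow fibre genes had an r of 0.46 with the tendon value and 0.56 with the other, and whether the part of the muscle sampled bears on these levels was not tested.

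**Figure D3:**
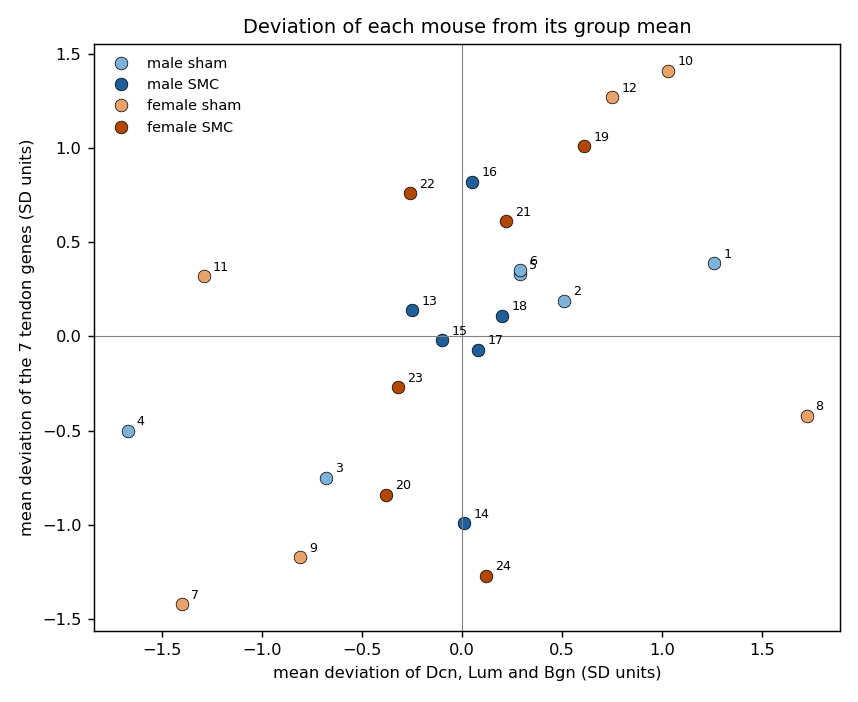
Mean deviation of each mouse from its group mean for the 7 tendon genes (vertical) against Dcn, Lum and Bgn (horizontal), in SD units, with points coloured by group and numbered by mouse. Mice 10 and 12 are highest on the vertical axis (1.41 and 1.27), while mouse 8 is highest on the horizontal axis (1.72) and below 0 on the vertical.

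In males, sham and SMC mice overlapped in every one of the 10 genes, and 8 of the 10 log2 fold changes were negative. The log2 fold change (SMC over sham) was 0.07 (SE 0.33) for Fmod, -0.46 (SE 0.28) for Thbs4, -0.07 (SE 0.40) for Comp, -0.26 (SE 0.47) for Tnmd, -0.06 (SE 0.24) for Scx, 0.03 (SE 0.29) for Mkx and -0.32 (SE 0.58) for Kera. For Dcn, Lum and Bgn it was -0.22, -0.23 and -0.31, with SEs of 0.17, 0.26 and 0.16. Without male sham 4 and female sham 7, Kera was at -0.56, Tnmd at -0.46, Lum at -0.42 and Bgn at -0.40, while Thbs4 was at -0.47 and Fmod at 0.09, and the median over the 10 genes was -0.34. With library totals in place of TMM factors the median of all genes went from -0.004 to -0.13, and Fmod and Mkx were then at -0.07 and -0.10. None of the 10 genes was called by edgeR's quasi-likelihood test at a false discovery rate (FDR) under 0.05, where 0.0% of all genes were called, and 0 had an unadjusted p under 0.05, where 11% of all genes did. DESeq2 and limma with voom weights also called 0 of them, and since the list was drawn up with this comparison known, nothing is read from these counts. The median over the 10 genes was -0.23, with 8 negative, against -0.004 and 50.93% negative over all genes tested.

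In females, 8 of the 10 genes had a negative log2 fold change. The values were -0.77 (SE 0.33) for Fmod, -0.67 (SE 0.28) for Thbs4, -0.998 (SE 0.40) for Comp, -0.98 (SE 0.46) for Tnmd, -0.34 (SE 0.29) for Mkx and -1.13 (SE 0.57) for Kera. Scx was the exception among the tendon genes at 0.19 (SE 0.24). Dcn was at -0.19 (SE 0.17), Bgn at -0.04 (SE 0.16) and Lum at 0.38 (SE 0.26). None was called by edgeR at an FDR under 0.05, where 0.341% of all genes were, nor by DESeq2 or voom. Fmod, Thbs4, Comp and Tnmd, 4 of 10, had an unadjusted p under 0.05, as 12.5% of all genes did, and since the list was drawn up with this comparison known, nothing is read from that count. The median over the 10 genes was -0.50, against -0.01 and 52.37% negative over all genes tested.
Without female sham 10 and 12, an alternative chosen after seeing the data, the female values became -0.10 for Fmod, -0.14 for Thbs4, -0.26 for Comp, -0.17 for Tnmd, -0.33 for Kera and 0.08 for Mkx. Scx and Lum went to 0.48 and 0.49, Bgn to 0.10 and Dcn to -0.01, and the median over the 10 genes to -0.06 with 6 negative. Leaving out either of these mice alone moved Fmod at most to -0.50 and Comp at most to -0.72. These mice were chosen after their high tendon gene levels were seen. Leaving them out was therefore bound to lower the female sham mean of those genes. Nothing is read from that shift, here or where the pair is left out below. A test for a single outlying value (Dixon) flagged 0 of 40 groups of values. It sets an extreme value against its nearest neighbour, so a pair of high mice can hide each other. Nothing is read from that 0. Without male sham 4 and female sham 7, the female values were -0.93 for Fmod, -0.79 for Thbs4, -1.18 for both Comp and Tnmd, -0.49 for Mkx and -1.29 for Kera, and the median over the 10 genes was -0.64.

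The difference between both responses (male minus female) was 0.84 (SE 0.47) for Fmod, 0.93 (SE 0.57) for Comp, 0.72 (SE 0.66) for Tnmd, 0.81 (SE 0.81) for Kera and -0.62 (SE 0.37) for Lum. The remaining members were between -0.27 (Bgn) and 0.37 (Mkx). None was called by edgeR, DESeq2 or voom, with 0.0% of all genes called by edgeR, and 0 had an unadjusted p under 0.05, against 5.13% of all genes. As above, nothing is read from these counts. Without female sham 10 and 12, 3 genes changed sign, with Thbs4 going from 0.21 to -0.32, Tnmd to -0.095 and Mkx to -0.058. Fmod was then at 0.16, Comp at 0.19, Kera at 0.01, Scx at -0.54 and Lum at -0.74. With male sham 4 and female sham 7 left out instead, Fmod was at 1.02.

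**Figure D4:**
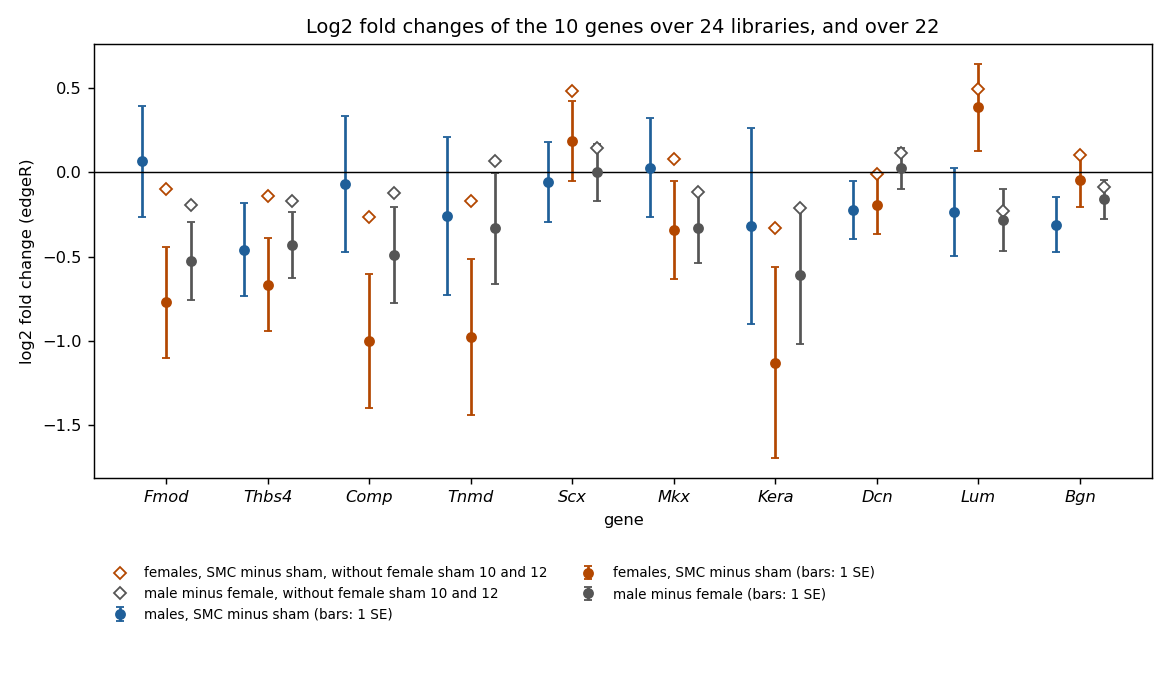
Log2 fold change of each gene for SMC minus sham in males (blue) and females (orange) and for male minus female (grey), with bars of 1 SE over 24 libraries, and open diamonds for the fit of 22 libraries without female sham 10 and 12. In females Fmod is at -0.77 with all mice and -0.10 without that pair, and Comp at -0.998 and -0.26.

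Levels in males against females, averaged over sham and SMC, were not used to list the genes and were tested. The log2 fold change of Fmod was -0.53 (SE 0.23, edgeR FDR 0.210), Thbs4 was at -0.43 (SE 0.20, edgeR FDR 0.226), Comp at -0.49 (SE 0.28, edgeR FDR 0.353) and Kera at -0.61 (SE 0.41, edgeR FDR 0.433). Scx differed by 0.0001 (95% interval from the SE, -0.33 to 0.33) and Dcn by 0.03 (-0.21 to 0.26). None of the 10 genes passed an FDR under 0.05, where 4.93% of all genes passed, and 2 of them, Fmod and Thbs4, had an unadjusted p under 0.05, where 19.3% of all genes did. DESeq2 and voom called 0 as well. The median over the 10 genes was -0.33 with 8 negative, against -0.004 over all genes. Without female sham 10 and 12, Fmod was at -0.19, Thbs4 at -0.17, Comp at -0.12 and Tnmd at 0.07. Without male sham 4 and female sham 7 instead, Fmod was at -0.62, Thbs4 at -0.49, Comp at -0.61, Tnmd at -0.34 and Kera at -0.57. Of 5 adipocyte markers, Retn, which encodes resistin, was lower in males with -1.76 (edgeR FDR 0.0281), and was called in 21 of 24 fits that left out 1 library (not without female sham 8, female SMC 20 or female SMC 23), and not by voom. Adipoq, Plin1, Cidec and Lep did not pass, with a negative log2 fold change in all 5 and a median of -1.16. Without male sham 4 and female sham 7, Plin1 and Cidec passed as well, in a fit that called 1268 of 16557 genes between the sexes. The part of fat tissue in the sex values of the 10 genes was not tested, and over the 24 mice the summed adipocyte markers had an r of -0.13 with the tendon value.
The sex difference of Fmod was -0.94 (SE 0.33) among sham mice and -0.11 (SE 0.33) among SMC mice, and that of Comp -0.95 (SE 0.40) and -0.03 (SE 0.40). Lum was at 0.03 (SE 0.26) among sham and -0.59 (SE 0.26) among SMC mice. These values share their libraries with the SMC comparisons above and are given as a description.

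Genes outside the 10 were ranked by their correlation with the tendon value over the 24 mice, again on deviations from group means. The nearest was Col12a1, a collagen of fibril surfaces, with an r of 0.97, which was 0.96 without female sham 10 and 12. It was followed by Col11a1 (0.93), which encodes a fibril-nucleating collagen chain, Cilp2 (0.90), Col8a2 (0.89), Ptx4 (0.89), Prg4 (0.89), which encodes lubricin, Cybrd1 (0.88), Chad (0.88), which encodes the leucine-rich protein chondroadherin, Itgbl1 (0.87) and 1500015O10Rik (0.86). The median r of all genes was -0.0008 and 2.5% of genes exceeded 0.48. Col12a1 ran from 15.64 to 73.14 CPM over the mice and Chad from 4.84 to 70.63.
The genes nearest to Dcn, Lum and Bgn were others, and 0 genes were in both lists of 10. They were Colec12 (0.89), Pcolce (0.89), which encodes the enhancer of procollagen C-proteinase, Mgp (0.88), Epb41l2 (0.87), Ltbp1 (0.87), Igfbp6 (0.87), Fbln2 (0.86), Rcn3 (0.86), Lpar1 (0.86) and Sdc2 (0.84). With the tendon value Fbln2 had an r of 0.27 and Mgp of 0.66.

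Other small leucine-rich proteoglycans were spread between both patterns. Of 12 listed, 8 passed the filter on low counts, and the r with the tendon value ran from 0.18 to 0.88 and that with Dcn, Lum and Bgn from 0.28 to 0.80. Chad was tendon-like, whereas Ogn (osteoglycin) and Aspn (asporin) had r of 0.80 and 0.77 with Dcn, Lum and Bgn. Of these 8 genes 0 were called with SMC in either sex, and the largest values were -1.22 (SE 0.48) for Chad and -1.16 (SE 0.32) for Omd (osteomodulin) in females, and -0.38 and -0.28 for Omd and Tsku in males. The other thrombospondins Thbs1, Thbs2 and Thbs3 were at 0.33, 0.14 and 0.07 in males and at -0.38, -0.36 and -0.12 in females, with 0 of 3 called. In the fit without female sham 10 and 12, 2 of the 3 were positive in females, with a median of 0.01 in place of -0.36. DESeq2 called Omd lower in female SMC mice (adjusted p 0.0323), as did edgeR without female sham 9 (FDR 0.0138). These fits called 268 and 147 of all genes in females. The lists were chosen with earlier results of these data known, so SMC calls in them are a description. Nothing is read from such calls, here or in the lists below. Thbs2 was called lower in males than in females, with -0.56 (edgeR FDR 0.0227), when male sham 4 and female sham 7 were left out. That fit called 1268 of 16557 genes between the sexes.
Fibrillar and associated collagens numbered 13, all tested, and 0 were called in either sex. In females 13 of 13 had a negative log2 fold change with a median of -0.53, led by Col1a2 at -0.91 (SE 0.28) and Col1a1 at -0.88 (SE 0.35), the chains of type I collagen. Without female sham 10 and 12, 11 of 13 were negative, with a median of -0.20. Over all genes tested 52.37% were negative in females and 50.93% in males, to be set beside the counts of this and the later lists. With male sham 4 and female sham 7 left out, 2 of 13 were called in females, Col1a2 with -1.09 (edgeR FDR 0.0276) and Col5a2 with -0.73 (edgeR FDR 0.0433), and the median was -0.64. That fit called 155 of 16557 genes in females. In males 2 of 13 were negative and the median was 0.06 (9 of 13 negative and -0.07 with library totals, where the median of all genes was -0.13), with Col11a2 at 0.29 (SE 0.29) and Col1a1 at 0.25 (SE 0.35). The male direction also turned without male sham 4 and female sham 7, to 8 of 13 negative and a median of -0.02. Col12a1, Col11a1, Col1a2, Col1a1 and Col11a2 were closer to the tendon value (r 0.63 to 0.97), and Col6a3, Col6a1 and Col14a1 closer to Dcn, Lum and Bgn (r 0.81 to 0.84).

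**Figure D5:**
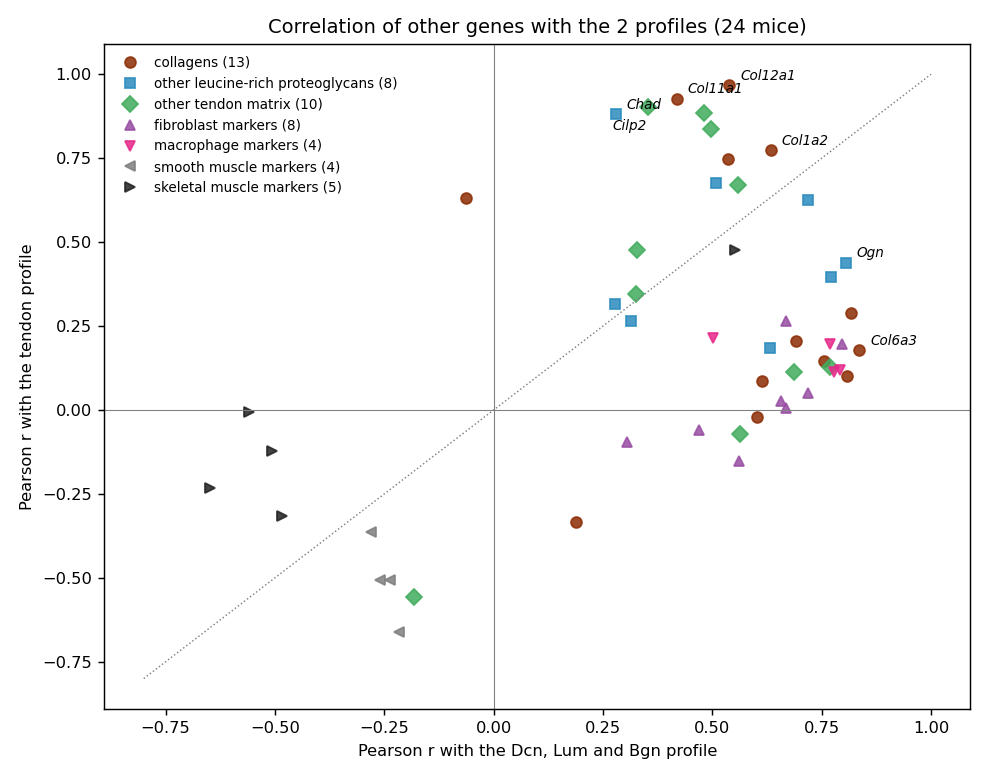
Pearson r over 24 mice of genes in 7 lists with the value of Dcn, Lum and Bgn (horizontal) and with the tendon value (vertical), with 1 symbol per list and the number of genes tested in brackets. Col12a1, Col11a1, Cilp2 and Chad lie at the top (0.88 to 0.97), macrophage and fibroblast markers lie to the right of the dotted line of equal r, and smooth muscle markers lie below 0 on both axes.

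Enzymes that modify, process and crosslink collagen were listed as 18 genes, of which 17 were tested and 0 were called with SMC. The largest values were -0.95 (SE 0.26) for Lox, which encodes lysyl oxidase, and -0.93 (SE 0.36) for Adamts14 in females, and -0.28 for Lox and 0.27 for Loxl3 in males. Without male sham 4 and female sham 7, 3 of the 17 were called in females, all lower with SMC, Lox with -1.03 (edgeR FDR 0.0484), Adamts2 with -0.60 (edgeR FDR 0.0247) and Sparc with -0.53 (edgeR FDR 0.0486). That fit called 155 of 16557 genes in females, and nothing is read from these calls. Lox was also called with library totals (edgeR FDR 0.0434), without female sham 9 (edgeR FDR 0.0156) and by DESeq2 (adjusted p 0.0266), and Adamts2 by DESeq2 (adjusted p 0.0413), whereas without female sham 10 and 12 edgeR called 0. Between the sexes 2 were called, both lower in males: Plod2, a lysyl hydroxylase, with -0.89 (edgeR FDR 0.0130), and Adamts3, a procollagen N-proteinase, with -0.77 (edgeR FDR 0.00134). Over all genes tested 4.93% were called between the sexes, to be set beside the counts of this and the later lists. Adamts3 had an r of 0.57 with the tendon value and Plod2 of 0.09. Among regulators of tendon and the TGF-beta pathway, 15 of 18 were tested and 0 were called with SMC, except Tgfb2 in females without female sham 9, higher with 0.43 (edgeR FDR 0.0448). Ccn2, a matricellular growth factor, was at -0.63 (SE 0.24) in males and -0.54 (SE 0.24) in females, Six2 at -0.43 in males and Egr1 at 0.91 (SE 0.55) in females. Tgfb3 was called between the sexes and was lower in males, with -0.24 (edgeR FDR 0.00882). Eya2 was the regulator nearest to the tendon value, with an r of 0.67, and Scx and Mkx were not part of this list.
Of 10 other tendon matrix genes, 0 were called with SMC in either sex and 9 were negative in females, where Cilp2 was at -1.10 (SE 0.40) and Prg4 at -0.81 (SE 0.35). In males Postn was at -0.62 (SE 0.40) and Prg4 at -0.37 (SE 0.35). Of 10 tested matrix proteases and inhibitors 0 were called with SMC. Adamts4 was at 0.65 in males and -0.76 in females and Mmp3 at 1.10 and -0.37, and Mmp3 was called between the sexes with -1.92 (edgeR FDR 0.0214) at a median of 0.327 CPM, though not without female sham 8. Of 8 matrix receptors 0 were called with SMC, and Itga2, an integrin subunit that binds collagen, was at 0.45 (SE 0.29) in males and -0.93 (SE 0.28) in females and had an r of 0.77 with the tendon value. Itga2 was called in females without male sham 4 and female sham 7, with -1.10 (edgeR FDR 0.0323), and so was Itga10 between the sexes, with -0.70 (edgeR FDR 0.0201). Of 16557 genes that fit called 155 in females and 1268 between the sexes. With all mice Itga10 was at -0.40 and -0.41 with SMC.

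Marker lists of other cells gave the following beside the 10 genes. The 8 fibroblast markers (Pdgfra, Ly6a, Cd34, Dpt, Pi16, Gsn, Clec3b and Smoc2) summed to medians of 1044 CPM in male sham, 867 in male SMC, 924.9 in female sham and 879.5 in female SMC. With SMC 8 of 8 were negative in males and 7 of 8 in females, 0 were called, and Pi16 had the largest values at -0.43 (SE 0.28) and -0.52 (SE 0.28). Their r ran from -0.15 to 0.26 with the tendon value and from 0.30 to 0.80 with Dcn, Lum and Bgn. The 4 macrophage markers had r of 0.11 to 0.22 and of 0.50 to 0.79. Of 8 cartilage markers, Acan, Col10a1, Matn3, Hapln1 and Cnmd did not pass the filter on low counts, with median levels of at most 0.0801 CPM, and Acan, Col10a1 and Cnmd were at 0 in 10, 16 and 16 of 24 libraries. The other 3 passed, Col2a1 at a median of 0.616 CPM, Col9a1 at 0.825 CPM and Sox9 at 4.91 CPM, with r of 0.79, -0.08 and 0.36 with the tendon value. The 8 markers summed to 3.31 to 11.17 CPM over the mice, and the part of cartilage in the levels of the tendon genes was not tested. Col22a1, the marker of the myotendinous junction, had an r of 0.51 with the tendon value and -0.01 with Dcn, Lum and Bgn, and log2 fold changes of -0.30 (SE 0.21) in males and -0.26 (SE 0.21) in females. Smooth muscle markers were positive with SMC in 4 of 4 genes in each sex, with 0 called by edgeR over all mice and Acta2, Cnn1 and Myh11 called by DESeq2 in males, and had r of -0.66 to -0.36 with the tendon value. Myh11 was also called in males by voom (0.66, adjusted p 0.0231) and by edgeR without male sham 5 (0.83, FDR 0.0311). In males DESeq2 called 133 and voom 93 of 16408 genes, and edgeR without male sham 5 called 78 of 16566. In female sham 10 and 12 themselves the fibroblast markers summed to 1082 and 1010 CPM, where the group had a median of 924.9 and a range of 611.6 to 1934. The 7 tendon genes summed to 762.4 and 768.8 CPM, where the group had a median of 395.5 and a range of 201.8 to 768.8. The pair was picked for its high tendon genes, so nothing is read from that excess. Whether more tendon was included with these muscles was not tested.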

How the data were processed

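Total RNA of mouse skeletal muscle was extracted with the Direct-zol RNA Miniprep Plus kit and made into libraries with the NEBNext Ultra II Directional kit after depletion of ribosomal RNA. The authors deposited raw counts of reads per Ensembl gene, without normalization, with 1 column per mouse. The submitters' processing notes name cutadapt 1.16, STAR 2.7.9a, featureCounts 1.6, DESeq2 1.34.0 and the build GRCm39. Neither the annotation release nor whether counting used strand is given in the sources used here. Rows naming no gene numbered 0.

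The counts were filtered with filterByExpr over the 4 groups, normalized by TMM and fitted with edgeR 4.0.16 (quasi-likelihood, 1 mean per group, 24 libraries, R 4.3.3). Tests were two-sided, with Benjamini-Hochberg adjustment over all 16408 genes and a threshold of 0.05. CPM values use TMM library sizes, and log2 CPM a prior count of 2. Counting error at these library totals adds to the spread between mice, and edgeR takes both into account. Correlations are Pearson's r over deviations from group means.

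The 10 genes and the lists of other genes were chosen with earlier results of these data known. Named are all 10 genes, the called genes of each list with its 2 largest SMC values in each sex, and the 10 genes of highest correlation with each profile (markers of other cell types by their sums or as single values beside a result). Eya2, the cartilage genes, Thbs3, genes called only under an alternative and a few correlations were picked after their values were seen. Alternatives were DESeq2 1.42.0, limma 3.58.1 voomWithQualityWeights, library totals, other filters, fits of 1 sex, and libraries left out. The edgeR steps were tested on simulated data. Exon lengths came from GENCODE M21, promoters from RefSeq (GRCm38.p6), and protein sequences were not used here.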

Additional observations from a re-analysis of the deposited data

How the results depend on the processing

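None of the 10 genes passed an FDR under 0.05 in any comparison under the alternatives run, and for the SMC comparisons, known when the genes were listed, nothing is read from that. Counts over all genes moved more. In males edgeR called 0 genes (1805 at an unadjusted p under 0.05), DESeq2 133 and voom 93, and with 1 library left out the count ran from 0 to 78. In females the 56 genes called (20 higher, 36 lower) became 268 with DESeq2 (114 higher, 154 lower), 215 with library totals (13 higher, 202 lower), 16 with voom, 14 with the 12 female libraries alone, 155 without male sham 4 and female sham 7, and 16 without female sham 10 and 12, and ran from 0 to 147 with 1 library left out. The interaction gave 0 genes with edgeR, 1 with DESeq2 and 0 to 1 with a library left out. Between males and females 809 genes (392 higher and 417 lower in males) became 1420 with voom, 1268 without male sham 4 and female sham 7, 1102 with DESeq2, 694 without female sham 10 and 12, 596 with library totals (381 higher, 215 lower) and 592 with no filter, and 618 to 1086 with 1 library left out. The cause of these moves was not tested.

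Without female sham 10 and 12 the female value of Fmod went from -0.77 to -0.10 and the interaction from 0.84 to 0.16, the interaction turned negative for Thbs4, Tnmd and Mkx, and the sex difference of Tnmd turned to 0.0701. The sex difference of Scx, 0.0001, was -0.00114 with at least 10 counts in every library and ran from -0.0616 to 0.0917 with 1 library left out, and that of Dcn, 0.03, from -0.0275 to 0.101. Scaled to library totals, the log2 range between the highest and the lowest mouse was 1.65 for Dcn and 1.88 for Bgn. With Spearman's rho, 6 of the 10 genes nearest to Dcn, Lum and Bgn stayed. No paired analysis was made, because the sample titles give only a running number and record no pairing. By the study's methods sham and SMC mice were housed in pairs for some experiments. Whether that held for these mice is not stated.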
